A study of Danio rerio with 32 samples.

Results

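A set of 52 genes of 15710 measured in zebrafish embryos was expressed in control embryos and markedly lower after valproic acid. A gene entered the set when its mean over the 8 control libraries was 5 or more on the log2 scale of the deposited table, when its highest valproic acid value lay below its lowest control and folic acid value, and when the control mean exceeded the valproic acid mean by 1 or more. A difference of 1 on this scale is a 2-fold difference. The rule took 60 genes, and 8 of them are not reported here. The members were thus chosen by their valproic acid, control and folic acid values, which are given as a description with no test, and only the retinoic acid libraries lay outside the choice. All valproic acid libraries lay below all control and folic acid libraries for 1.45% of the whole table.

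Polyadenylated RNA of whole embryos was sequenced in 4 groups of 8 libraries each. All embryos were kept in Dutch standard water with 0.01% DMSO and were exposed from 3 to 7 h after fertilization. Control embryos received nothing more, and the other groups received all-trans retinoic acid, valproic acid or folic acid, the last being the negative control of the study's design. The labels give no genotype, strain, dose or number of embryos per library, and whether replicates came from separate clutches or days is not stated, so each p-value reflects only the spread between these libraries. Library medians lay between 7.84 and 7.86. Relative depth, read as the number of distinct low values up to the lower quartile, ran from 13 to 53 and was lowest in folic acid replicates 7 and 8. Values are relative to all other transcripts of a library and not per length, so levels are compared between groups and not between genes. The gastrula margin and notochord gene tbxta stood at 12.78 ± 0.22 in control.

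Valproic acid is an antiepileptic drug that inhibits class I histone deacetylases and is known to cause neural tube and other birth defects. Histone deacetylases remove acetyl groups from histone tails and mostly act within corepressor complexes, but deacetylase inhibitors are known to lower the transcripts of many active genes as well as to raise silent ones. The exposure began at the blastula stage, soon after the zygotic genome is switched on, and ended in gastrulation, when the germ layers and the axis form and the first neural and endodermal regulators are transcribed.

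The mean of the 52 members was 7.90 ± 0.12 in control libraries (SD, n = 8), 7.86 ± 0.09 in folic acid, 7.79 ± 0.06 in retinoic acid and 6.50 ± 0.08 in valproic acid. The single libraries ran from 6.38 to 6.61 with valproic acid and from 7.70 to 8.05 in control embryos. Folic acid libraries lay between 7.71 and 7.98 and retinoic acid libraries between 7.72 and 7.87, so these 3 groups overlapped. Members were 2.01-fold to 7.61-fold lower with valproic acid than in control, with a median of 2.36-fold, and 14 were at least 3-fold lower. In whole embryos, fewer cells of a type and less RNA per cell cannot be told apart. Valproic acid called 31.3% of all genes against control at an adjusted p under 0.05 (limma, Benjamini-Hochberg), 15.4% lower and 15.9% higher, so the set is a small, strongly lowered part of a broad change. The normalized libraries have nearly equal medians, so the near balance of lower and higher calls holds only relative to the other transcripts.

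**Figure D1:**
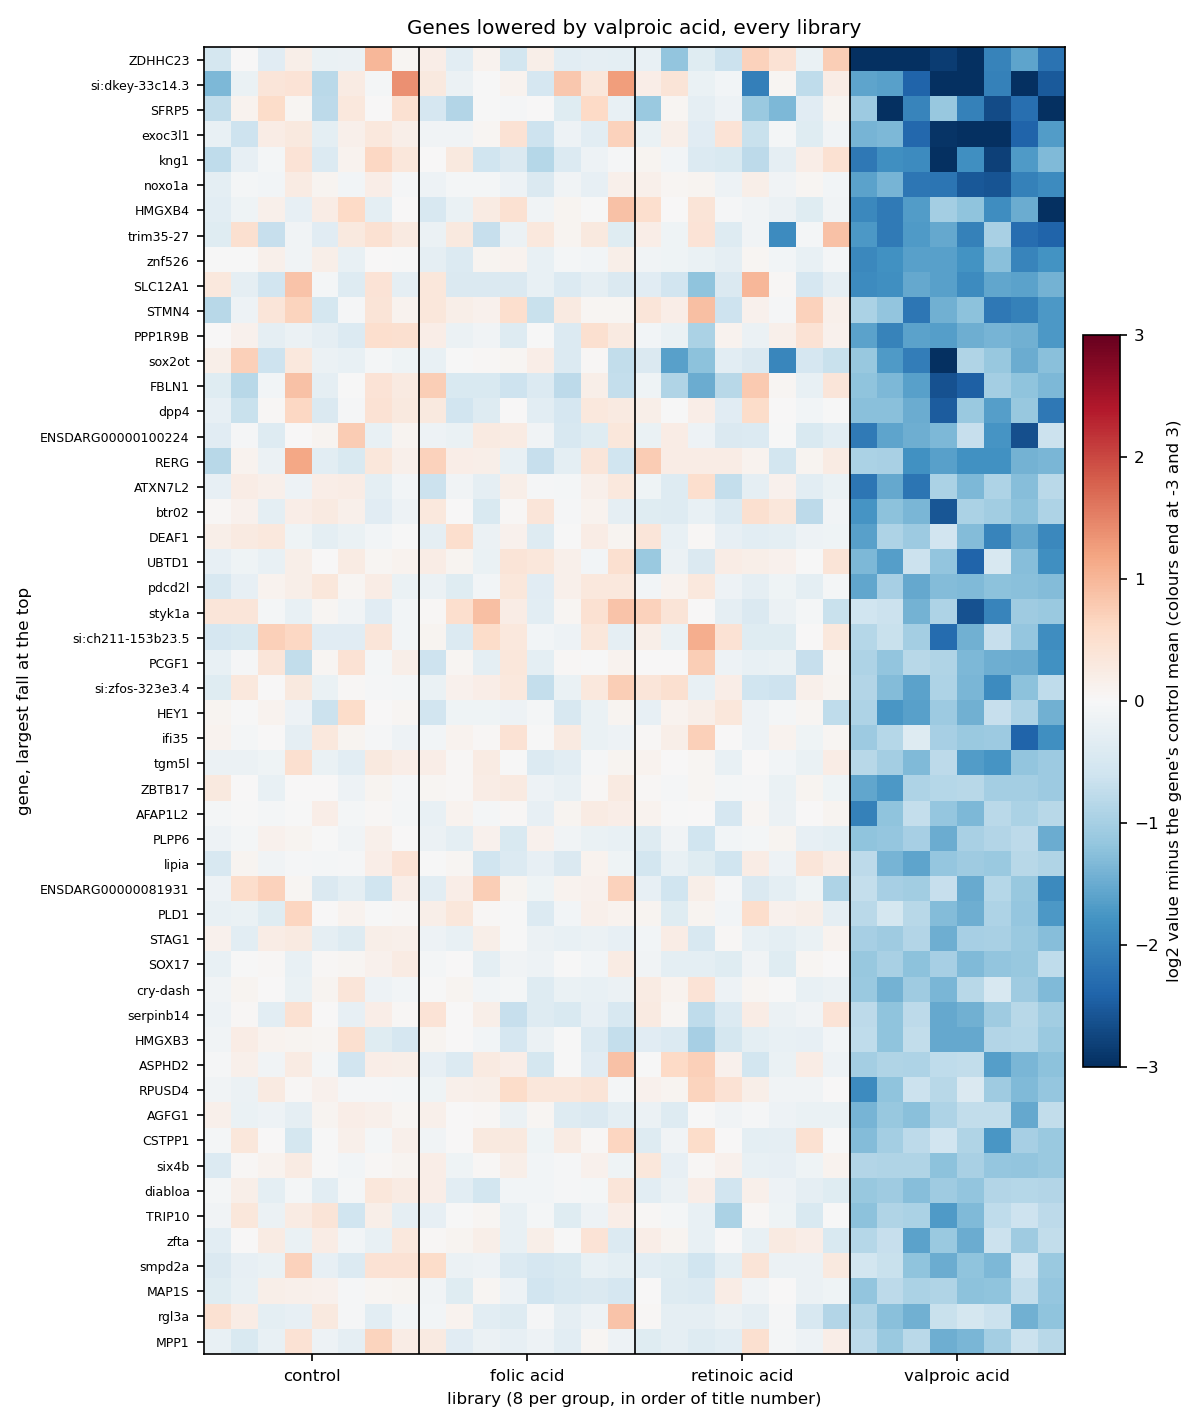
Every member (rows, largest fall at the top) in every library (columns, 8 per group in order of title number), as the log2 value minus the gene's control mean; colours end at -3 and 3. The valproic acid block is blue throughout because the rule chose it so, while folic and retinoic acid libraries stay near 0 for most genes.

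By what their products do, 9 members belong to chromatin and transcription, and 5 are developmental regulators, among them the noncoding RNA sox2ot. There are 12 that act in the cytoskeleton, membrane traffic or small GTPase signalling, and 8 enzymes that modify lipids, proteins or RNA. Another 4 are secreted or transport proteins, 4 are a serpin or carry immune-related names, 2 act in redox or cell death, 3 have other roles and 5 have no assigned role. The median difference from control was -1.63 for the secreted and transport proteins, -1.25 for chromatin and transcription, -1.23 for the developmental regulators and -1.10 for the modifying enzymes. Roles were assigned from the gene names, mostly from what is known of the mammalian proteins.

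The largest fall was that of ZDHHC23 (ENSDARG00000029039), of the DHHC family of enzymes that attach palmitate to proteins. Its lowest, median and highest values were 5.68, 6.12 and 7.20 in control, 5.65, 5.92 and 6.39 with folic acid, 5.01, 5.99 and 6.95 with retinoic acid, and 1.24, 3.22 and 4.61 with valproic acid. The difference of means was -2.93, or 7.61-fold, with 1 valproic acid library at that library's lowest value, so the size of this fall is not well fixed. A second identifier with the same symbol, ENSDARG00000003899, stood at 6.87 ± 0.28 in control and 6.85 ± 0.23 with valproic acid (difference -0.01, SE 0.16, adjusted p = 0.96). With valproic acid 15.9% of all genes were called higher and 15.4% lower. Among the 22 other palmitoyltransferase genes measured, 7 rose and 3 fell with valproic acid. Of these, 5 and 1 kept the call in every one of 32 fits that left out 1 library, among them ZDHHC18 (ENSDARG00000105034) with a rise of 0.45 (SE 0.10, adjusted p = 0.00074) and zdhhc5b with -0.51 (SE 0.13, adjusted p = 0.0025). The fall of ZDHHC23 thus stood beside both rises and falls in its own enzyme family.

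The clone-named gene si:dkey-33c14.3 came next. It ran from 4.14 to 6.87 in control, with a median of 5.59, and from 0.82 to 3.91 with valproic acid, with a median of 3.03. Its retinoic acid values, 3.45 to 5.87, reached into the valproic acid range, and its folic acid values, 4.99 to 6.75, did not. It was 6.89-fold lower with valproic acid, again with 1 library at its lowest value.

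SFRP5 (ENSDARG00000039041), a secreted antagonist of Wnt ligands, was 5.54-fold lower. Its lowest, median and highest values were 4.94, 5.81 and 6.27 in control, 4.83, 5.58 and 6.32 with folic acid, 4.38, 5.41 and 5.80 with retinoic acid, and 0.85, 3.57 and 4.62 with valproic acid. The highest valproic acid library lay above the lowest retinoic acid library, and 1 valproic acid library was at its lowest value. Of 5 other secreted Wnt antagonists measured, 2 fell with valproic acid. WIF1, which binds Wnt proteins directly, ran from 4.19 to 6.51 in control and from 1.24 to 5.21 with valproic acid (-1.84, SE 0.51, adjusted p = 0.0055). The value of 1.24 equals the lowest value of valproic acid replicate 5, so the size of this fall is not well fixed. SFRP1 differed by -0.28 (SE 0.10, adjusted p = 0.023), and this call was lost without valproic acid replicate 4 or 5. The values of frzb (-0.13, SE 0.10) and dkk1b (-0.23, SE 0.16) did not pass. Over the wider Wnt list without SFRP5, 13 of 26 measured genes were called lower and 1 higher, with a median of -0.26 against -0.01 for all genes. Of all genes, 15.4% were called lower and 15.9% higher.

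The NADPH oxidase organizer noxo1a (ENSDARG00000041294) was 1 of the members whose groups stood furthest apart. In mammals its protein assembles with NOX1 and the activator NOXA1 at the membrane to make superoxide. It ran from 9.93 to 10.47 in control (median 10.17), from 9.78 to 10.36 with folic acid (10.09), from 10.05 to 10.40 with retinoic acid (10.28) and from 7.62 to 8.83 with valproic acid (8.11). The distance between its lowest control or folic acid library and its highest valproic acid library was 0.96, and the means, 10.22 ± 0.17 and 8.16 ± 0.42, differed 4.14-fold. The activator noxa1 was a low gene with 3.03 to 4.53 in control, and 0.85 to 2.22 with valproic acid. It fell by 2.48 on the log2 scale (SE 0.54, adjusted p = 0.00059), with 3 valproic acid libraries at their lowest value. The catalytic subunit nox1 ran from 8.54 to 9.23 in control and from 7.74 to 8.61 with valproic acid (-0.63, SE 0.16, adjusted p = 0.0025). Both calls held in every fit that left out 1 library. The membrane partner cyba (-0.15, SE 0.15, adjusted p = 0.48), the phagocyte oxidase cybb (0.15, SE 0.19, adjusted p = 0.58) and duox (-0.27, SE 0.16, adjusted p = 0.22) did not pass. NCF1, the organizer of the phagocyte oxidase, rose by 0.95 (SE 0.34, adjusted p = 0.031), a call lost without control replicate 1 or 2 or valproic acid replicate 1, 3, 4 or 7. The organizer noxo1a, which the rule chose to be low, the activator noxa1 and the catalytic subunit nox1 were thus lower. Their membrane partner cyba and the catalytic subunits cybb and duox were not called. Of 10 other oxidase genes measured, 2 were called lower and 1 higher, with a median of -0.085. The shares of all genes were 15.4% lower and 15.9% higher.

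The other member of the redox and cell death group was diabloa, a zebrafish Smac gene, whose product leaves mitochondria and blocks inhibitors of apoptosis. It ran from 9.69 to 10.36 in control (median 9.97), from 9.47 to 10.39 with folic acid (9.95), from 9.44 to 10.23 with retinoic acid (9.79) and from 8.74 to 9.17 with valproic acid (8.96), a 2.05-fold difference. Its paralog diablob fell by 0.73 (SE 0.12, adjusted p = 1.9e-05), and xiap, the caspase inhibitor that Smac binds, fell by 0.65 (SE 0.17, adjusted p = 0.0028). In the same group of 15 apoptosis genes, 4 rose, among them the pro-apoptotic genes bida (0.81, SE 0.16, adjusted p = 0.00017) and BAX (0.24, SE 0.07, adjusted p = 0.012) and the apoptosome gene APAF1 (0.37, SE 0.12, adjusted p = 0.017). All 6 calls held in each fit that left out 1 library. The shares called over all genes were 15.9% higher and 15.4% lower.

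**Figure D2:**
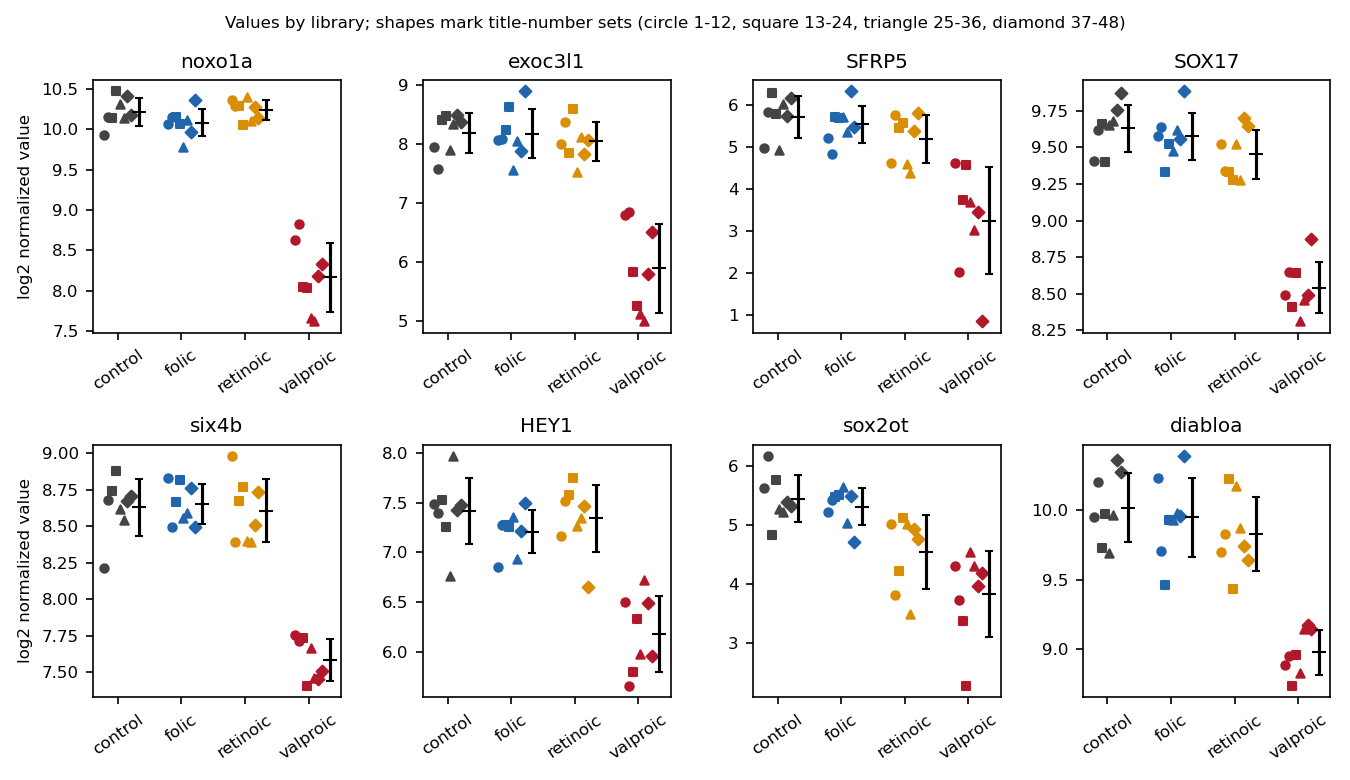
Log2 normalized values of 8 members in each library, by group; shapes give the set of title numbers and the black marks the mean ± SD of 8 libraries. For noxo1a the valproic acid libraries end at 8.83 and the next library above stands at 9.78, while for sox2ot the retinoic acid libraries lie between control and valproic acid and overlap both.

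Among the developmental regulators, SOX17 encodes an HMG-box transcription factor of the early endoderm. It also marks the dorsal forerunner cells of the zebrafish. It ran from 9.40 to 9.87 in control (median 9.66), from 9.33 to 9.88 with folic acid (9.57), from 9.28 to 9.70 with retinoic acid (9.43) and from 8.31 to 8.87 with valproic acid (8.49), and was 2.13-fold lower. All 8 valproic acid libraries lay below all libraries of the other groups. sox32, the zebrafish factor that acts above it in endoderm, was at 10.46 to 11.19 in control and 9.77 to 11.27 with valproic acid (-0.15, SE 0.19, adjusted p = 0.59). Its 95% interval was -0.54 to 0.24. Of 12 other endoderm genes, 5 fell, and 4 of those held in all fits that left out 1 library: GATA6 with -0.54 (SE 0.11, adjusted p = 0.00018), GATA5 with -0.40 (SE 0.10, adjusted p = 0.0016), FOXA2 with -0.25 (SE 0.07, adjusted p = 0.0091) and prdx5 with -0.75 (SE 0.16, adjusted p = 0.00039). FLOT1 rose by 1.16 (SE 0.18, adjusted p = 5.5e-06). Over all genes 15.4% were called lower and 15.9% higher with valproic acid. Of the 10 forerunner cell markers measured beside SOX17, lft2 fell (-0.65, SE 0.11, adjusted p = 1.9e-05), and the others did not pass. The summed linear level of the forerunner markers ran from 11482 to 17824 in control and from 9926 to 18680 with valproic acid. This sum includes SOX17 itself and the margin and notochord gene tbxta, so it does not measure forerunner cells alone. The part of forerunner cells in the SOX17 result was not tested.

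HEY1, a basic helix-loop-helix repressor and target of Notch signalling, ran from 6.76 to 7.97 in control (median 7.45), from 6.85 to 7.50 with folic acid (7.26), from 6.65 to 7.75 with retinoic acid (7.41) and from 5.66 to 6.72 with valproic acid (6.15). It was 2.35-fold lower, and its highest valproic acid library lay just above the lowest retinoic acid library. Of 10 related hairy and enhancer-of-split genes, 7 fell and none rose. her12 (-1.41, SE 0.22, adjusted p = 1.1e-05), her15.1 (-1.65, SE 0.30, adjusted p = 6.4e-05), her2 (-1.74, SE 0.47, adjusted p = 0.0049), HES6 of identifier ENSDARG00000007097 (-1.16, SE 0.32, adjusted p = 0.0053), her7 (-0.47, SE 0.11, adjusted p = 0.001) and her8a (-0.34, SE 0.09, adjusted p = 0.0043) held in every fit that left out 1 library. her5 lost its call without control replicate 3 or valproic acid replicates 5 or 6. The clock genes her1 (-0.15, SE 0.10) and her11 (-0.21, SE 0.11) did not pass. In the Notch list without HEY1, 13 of 25 genes were called lower and 2 higher, with a median of -0.33 against -0.01 for all genes. This list shares genes with the hairy and enhancer-of-split group, her5 among them. The shares called over all genes were 15.4% lower and 15.9% higher. The receptor NOTCH1 of identifier ENSDARG00000052094 fell by 1.25 (SE 0.26, adjusted p = 0.00045) and the ligand dlc by 0.50 (SE 0.09, adjusted p = 5e-05), whereas the ligand DLD rose by 0.50 (SE 0.09, adjusted p = 0.00011). The Notch ligands therefore moved in both directions while all 7 called her and hes genes fell.

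six4b, a homeobox gene of the sine oculis family known from the placodal field, ran from 8.21 to 8.88 in control (median 8.67), from 8.50 to 8.83 with folic acid (8.63), from 8.39 to 8.98 with retinoic acid (8.59) and from 7.41 to 7.76 with valproic acid (7.59). All valproic acid libraries lay below the other groups, which overlapped one another, and the difference from control was 2.06-fold. Its paralog six4a was less far below control, at -0.35 (SE 0.12, adjusted p = 0.022), and lost its call without valproic acid replicate 1 or 4. Of 8 other genes of the sine oculis and Eya families, 4 fell, with SIX3 of identifier ENSDARG00000054879 at -1.24 (SE 0.33, adjusted p = 0.0039), and the Eya genes EYA1 (-0.27, SE 0.24), eya2 (0.37, SE 0.28) and eya3 (0.03, SE 0.08) did not pass. In the list of neural border, crest and placode genes without six4b, 14 of 26 were called lower and 3 higher, with a median of -0.36. The shares of all genes were 15.4% and 15.9%. The hindbrain and spinal list had 11 of 17 lower and 0 higher, and the FGF list 13 of 27 lower and 1 higher. Only 4 of the 11 hindbrain and spinal falls held in every fit that left out 1 library, against all 13 FGF falls. With the members counted in, 10 of 15 border falls, 10 of 14 Wnt falls and 12 of 14 Notch falls held in this way. In the cell cycle list 7 of 40 were lower and 2 higher, and among cleared maternal genes 0 of 25 and 2. A lean to lower calls was thus not particular to the border, Notch and Wnt lists.

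The long noncoding RNA sox2ot overlaps the sox2 gene in vertebrate genomes. It ran from 4.83 to 6.16 in control (median 5.35), from 4.71 to 5.64 with folic acid (5.45), from 3.49 to 5.12 with retinoic acid (4.85) and from 2.28 to 4.55 with valproic acid (4.07). It was 3.04-fold lower with valproic acid, and the retinoic acid libraries overlapped those of both control and valproic acid. SOX2 itself (ENSDARG00000070913), a neural and pluripotency factor, stood at 11.59 ± 0.19 in control and 11.62 ± 0.13 with valproic acid (difference 0.03, SE 0.08, 95% interval -0.13 to 0.19, adjusted p = 0.82). With retinoic acid SOX2 was at 11.11 ± 0.14 and fell by 0.48 (SE 0.08, adjusted p = 0.00048). The valproic acid libraries were thus low in sox2ot with no detected difference in SOX2. Reads in any overlap of the genes cannot be assigned to either from these values. The libraries were strand-specific, and whether the counting used strand is not given in the sources used here.

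Of the 9 chromatin and transcription members, HMGXB4, an HMG-box protein, had the largest fall, at 3.79-fold. It ran from 6.74 to 7.64 in control (median 6.99), from 6.56 to 7.93 with folic acid (7.09), from 6.68 to 7.55 with retinoic acid (6.98) and from 2.97 to 6.02 with valproic acid (5.29). One library, valproic acid replicate 8, held the value of 2.97, and the next was at 4.94. HMGXB3, the other HMG-box member, was 2.11-fold lower, with 7.63 to 8.60 in control and 6.59 to 7.38 with valproic acid. The zinc finger gene znf526 had its groups 0.84 apart. It ran from 9.23 to 9.62 in control (median 9.44), from 9.05 to 9.63 with folic acid (9.37), from 9.17 to 9.51 with retinoic acid (9.33) and from 7.46 to 8.21 with valproic acid (7.66), and was 3.32-fold lower.

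PCGF1 encodes the subunit that defines a variant Polycomb repressive complex with BCOR, which places ubiquitin on histone H2A. It ran from 6.66 to 7.84 in control (median 7.41), from 6.79 to 7.73 with folic acid (7.41), from 6.70 to 8.13 with retinoic acid (7.33) and from 5.59 to 6.57 with valproic acid (6.12), a 2.37-fold difference. Of 16 other Polycomb genes, 5 rose and 3 fell, where 15.9% of all genes were called higher and 15.4% lower. BCOR fell by 0.30 (SE 0.08, adjusted p = 0.0035) and its relative bcorl1 rose by 1.13 (SE 0.16, adjusted p = 1.4e-06), while the catalytic subunit RNF2 did not pass (0.13, SE 0.05, adjusted p = 0.0505). Genes of other Polycomb subunits moved in both directions. Both BMI1 identifiers rose (ENSDARG00000013076 by 0.68, SE 0.16, adjusted p = 0.0017, and ENSDARG00000006010 by 0.54, SE 0.16, adjusted p = 0.0084). PCGF6 rose by 0.36 (SE 0.10, adjusted p = 0.0062) and phc1 by 0.48 (SE 0.06, adjusted p = 7.4e-07). CBX8 of identifier ENSDARG00000087327 fell by 1.53 (SE 0.51, adjusted p = 0.021) and phc2a by 0.21 (SE 0.07, adjusted p = 0.020). With 1 library left out, this CBX8 kept its call in 29 of 32 fits and phc2a in 31. It was a low gene, with 1.85 to 4.81 in control and 0.17 to 4.55 with valproic acid. Its value of 0.64 equals the lowest value of valproic acid replicate 6, so the size of its fall is not well fixed. The other CBX8 identifier, ENSDARG00000098771, was not called, with 4.50 to 5.34 in control and 3.74 to 5.12 with valproic acid. PCGF5 was lower without passing (-0.55, SE 0.23, adjusted p = 0.062). PCGF1 was thus low where BMI1 and PCGF6 were raised.

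STAG1, a subunit of the cohesin ring, ran from 8.69 to 9.36 in control (median 9.21), from 8.84 to 9.26 with folic acid (8.90), from 8.59 to 9.30 with retinoic acid (8.94) and from 7.62 to 8.21 with valproic acid (8.05). It was 2.14-fold lower. A second identifier of that symbol, ENSDARG00000062137, was also lower, at 10.76 ± 0.14 against 11.41 ± 0.09 in control (-0.65, SE 0.06, adjusted p = 3.1e-09). The alternative subunit STAG2 was not called at either identifier, ENSDARG00000011783 (0.04, SE 0.09, adjusted p = 0.77) or ENSDARG00000053668 (-0.10, SE 0.10, adjusted p = 0.51). The core subunits SMC1A (-0.07, SE 0.10), SMC3 (0.14, SE 0.10) and rad21a (-0.07, SE 0.06) were not called either. Of 15 other cohesin genes, a count that leaves out both STAG1 identifiers, 4 fell and 1 rose. The shares over all genes were 15.4% lower and 15.9% higher. The falls of the loader NIPBL of identifier ENSDARG00000098272 (-0.32, SE 0.08, adjusted p = 0.0022) and of the regulators PDS5A (-0.25, SE 0.07, adjusted p = 0.0059) and PDS5B (-0.22, SE 0.07, adjusted p = 0.015) were small and held in every fit that left out 1 library. A second NIPBL identifier, ENSDARG00000061052, was not called. It ran from 13.33 to 13.59 in control and from 13.30 to 13.66 with valproic acid, so the fall was not shared by both NIPBL genes. Reads of near-identical paralogs may be split or lost in counting, so the values of the Stag paralogs are uncertain to that extent.

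ZBTB17, the Miz-1 zinc finger factor through which MYC is known to repress genes in mammals, ran from 9.65 to 10.18 in control (median 9.88), from 9.66 to 10.15 with folic acid (9.92), from 9.67 to 9.95 with retinoic acid (9.84) and from 8.16 to 9.04 with valproic acid (8.85). It was 2.19-fold lower. With valproic acid 15.9% of all genes were called higher and 15.4% lower. Of 12 genes of the Myc network and related factors, 3 rose and 2 fell, and the rises of MYC of identifier ENSDARG00000007241 (0.54, SE 0.14, adjusted p = 0.0028) and of the Max partner MXD4 (1.73, SE 0.26, adjusted p = 4.6e-06) held in every fit that left out 1 library. Neither fall did so: mycla (-0.20, adjusted p = 0.048) kept its call in 12 of 32 such fits, and ZBTB10 (-0.52, SE 0.17, adjusted p = 0.021) lost it without control replicate 4 or 7 or valproic acid replicate 4. The 3 remaining chromatin and transcription members were DEAF1, a SAND-domain factor (2.59-fold), ATXN7L2, related to a SAGA subunit (2.63-fold), and zfta, a zinc finger gene known from human ependymoma fusions (2.04-fold).

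**Figure D3:**
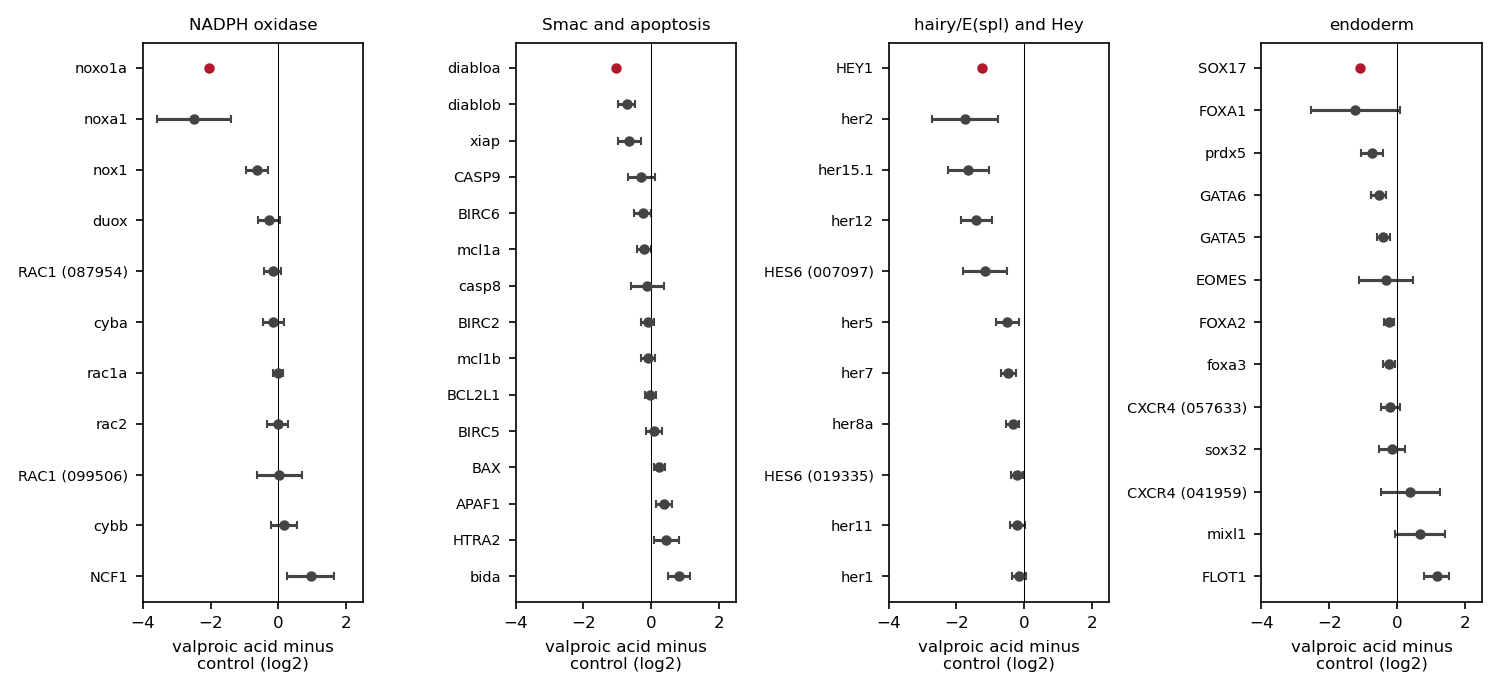
Difference between valproic acid and control (log2, points) for 4 members (red, without intervals, since this difference chose them) and other genes of their groups (grey, with 95% confidence intervals), with the last 6 digits of the identifier where a symbol occurs again. noxa1 and nox1 lie left of 0 with noxo1a, diablob and xiap with diabloa, and 7 her and hes genes with HEY1, while sox32 lies at -0.15 beside SOX17.

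The 12 cytoskeletal, membrane traffic and GTPase members were led by exoc3l1, related to an exocyst subunit that tethers secretory vesicles. It ran from 7.58 to 8.50 in control (median 8.35), from 7.57 to 8.90 with folic acid (8.09), from 7.52 to 8.60 with retinoic acid (8.04) and from 4.99 to 6.84 with valproic acid (5.82), and was 4.92-fold lower. STMN4, a stathmin that binds tubulin, was 3.06-fold lower, with 5.62 to 7.12 in control and 4.28 to 5.49 with valproic acid. A second STMN4 identifier, ENSDARG00000030106, was not called (0.24, SE 0.18, adjusted p = 0.32). PPP1R9B, or spinophilin, which brings protein phosphatase 1 to actin, was 3.05-fold lower, with 8.35 to 9.26 in control and 6.77 to 7.37 with valproic acid. The difference of its other identifier, ENSDARG00000071709, was in the opposite direction and did not pass (1.001, SE 0.50, adjusted p = 0.13). For these copies, and for TRIP10, whose other identifier differed by 0.04 (SE 0.13, adjusted p = 0.84), the lower level was not shared by the gene of the same name. UBTD1, a ubiquitin-domain protein, was 2.56-fold lower and its other identifier, ENSDARG00000079623, fell by 0.45 (SE 0.12, adjusted p = 0.0036).

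The other members of the cytoskeletal and signalling group were between 2.01-fold and 2.78-fold lower. RERG, a Ras-like growth inhibitor in mammals, ran from 5.37 to 7.35 in control and from 4.38 to 5.25 with valproic acid (2.78-fold). The kinase-like gene styk1a was 2.45-fold lower and AFAP1L2, an actin-associated Src partner, 2.19-fold. AGFG1, an Arf GTPase-activating protein, was 2.08-fold lower, CSTPP1, of the centriolar satellites, 2.07-fold, and the F-BAR protein gene TRIP10 2.05-fold. The microtubule-associated MAP1S was 2.02-fold lower, the Ral exchange factor rgl3a 2.01-fold and the membrane scaffold MPP1 2.01-fold. MPP1 ran from 10.78 to 11.91 in control and from 9.78 to 10.60 with valproic acid.

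Among the secreted, extracellular and transport proteins, kng1 encodes kininogen, the precursor of bradykinin. It ran from 6.07 to 7.46 in control (median 6.86), from 5.97 to 7.12 with folic acid (6.56), from 6.06 to 7.29 with retinoic acid (6.66) and from 3.66 to 5.51 with valproic acid (4.97), and was 4.25-fold lower. SLC12A1, a sodium-potassium-chloride cotransporter, was 3.17-fold lower, with 7.55 to 8.99 in control and 6.25 to 6.72 with valproic acid. The matrix glycoprotein gene FBLN1 was 3.03-fold lower, with 6.64 to 8.33 in control and 4.86 to 6.44 with valproic acid. The membrane peptidase dpp4 was 2.96-fold lower, with 7.39 to 8.68 in control and 5.56 to 6.95 with valproic acid. In the list of innate, complement and coagulation genes without the members kng1 and noxo1a, 5 of 20 were called lower and 5 higher, with a median of 0.12. The shares of all genes were 15.4% lower and 15.9% higher. The complement gene c3a.1 fell by 1.47 (SE 0.35, adjusted p = 0.0014) and prothrombin f2 by 1.36 (SE 0.34, adjusted p = 0.0027), whereas TFPI, an inhibitor of coagulation, rose by 2.03 (SE 0.49, adjusted p = 0.0018). Several plasma protein genes are also products of the yolk syncytial layer. Of 15 markers of that layer, 5 fell, with apobb.1 at -1.34 (SE 0.28) and apoa1b at -0.91 (SE 0.19), and the abundant apoeb did not pass (0.09, SE 0.06). The summed level of the layer's markers ran from 116665 to 155045 in control and from 116800 to 136389 with valproic acid, and its part in the kng1 result was not tested.

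The enzymes PLPP6, a phosphatase of isoprenoid diphosphates (2.17-fold), PLD1, which makes phosphatidic acid (2.14-fold), lipia, a lipase (2.16-fold), and smpd2a, a neutral sphingomyelinase (2.03-fold), all act on lipids. tgm5l, a transglutaminase, was 2.32-fold lower, ASPHD2, a hydroxylase-like gene, 2.11-fold, and RPUSD4, a mitochondrial pseudouridine synthase, 2.1-fold. serpinb14, a serine protease inhibitor gene, was 2.12-fold lower, with 9.60 to 10.37 in control and 8.39 to 9.13 with valproic acid. The tripartite-motif genes trim35-27 and btr02 were 3.61-fold and 2.62-fold lower, and ifi35, named for its induction by interferon in human cells, 2.33-fold. Members with other roles were cry-dash, a cryptochrome relative of DNA photolyases (2.12-fold), pdcd2l (2.48-fold) and UBTD1. The members with no assigned role were 2.15-fold to 6.89-fold lower. Markers of the enveloping layer, the outer epithelium of the embryo, gave 7 falls among 23, and their summed level ran from 261950 to 376288 in control and from 261631 to 325380 with valproic acid. Their part in the members' values was not tested. Germ cell markers gave 0 falls and 1 rise among 14, and prechordal and hatching gland markers 4 falls and 1 rise among 9. Over all genes 15.4% were called lower and 15.9% higher.

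Retinoic acid, whose libraries the rule did not use, called 0.732% of all genes against control (115 genes, 22 of them lower, limma), and 0 of the 52 members. At an unadjusted p under 0.05 there were 2 members, against 5.9% of all genes. These were sox2ot (-0.89, SE 0.29, unadjusted p = 0.0039, adjusted p = 0.26) and HMGXB3 (-0.39, SE 0.15, unadjusted p = 0.016, adjusted p = 0.57). The members' differences ran from -0.89 to 0.22 with a median of -0.10, against -0.01 for all genes, and 41 of 52 were below 0, against 51.8% of all genes. The control libraries in this comparison are those in which members were chosen to be high, so a lean below 0 is no independent result. For 49 of 52 members the 95% interval lay wholly above -1, and its median half-width was 0.35. A 2-fold fall with retinoic acid was thus outside the interval for most members. Smaller changes that lie within a member's interval are not excluded. The share of all genes with an interval above -1 was not computed, so this count is not shown to be particular to the members.

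Folic acid called 0 genes of 15710 against control, 0% of the table, and 507 genes had an unadjusted p under 0.05. Of the members, MAP1S alone had an unadjusted p under 0.05 (-0.32, unadjusted p = 0.0095, adjusted p = 0.98). Members' differences ran from -0.32 to 0.34 with a median of -0.05, and all 52 intervals lay above -1, which the rule favours because it used the folic acid libraries.

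Across the libraries that the rule left aside, 39 of 52 members had all 8 retinoic acid values above all 8 valproic acid values. Over the whole table all valproic acid libraries lay below all retinoic acid libraries for 2.44% of genes. The valproic acid values in this count were chosen to be low, so it is a description. The 13 members with overlap were si:dkey-33c14.3, SFRP5, trim35-27, sox2ot, FBLN1, UBTD1, styk1a, HEY1, ENSDARG00000081931, HMGXB3, TRIP10, smpd2a and rgl3a.

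**Figure D4:**
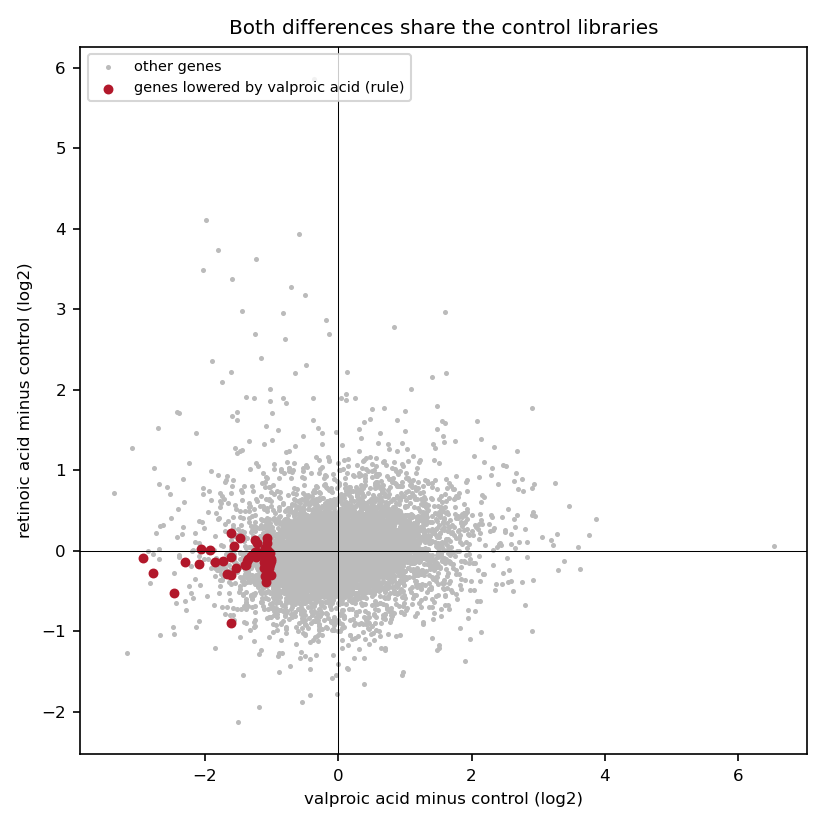
Difference from control (log2) with valproic acid on the x axis and retinoic acid on the y axis, for all 15710 genes (grey) and the 52 members (red); both differences use the same control libraries. Members lie between -2.93 and -1.005 on the x axis because of the rule, and between -0.89 and 0.22 on the y axis.

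Titles carry numbers from 1 to 48, and each set of 12 numbers holds 2 libraries of every group. What the numbers stand for is not given. All 52 members were lower with valproic acid than in control within each of the 4 sets, which the rule forces. The size varied, with medians of -1.08, -1.30, -1.27 and -1.30 in the order of the sets, and 30, 41, 37 and 44 members at 1 or more below control. Only 11 members were 1 or more below control in all 4 sets. The difference of si:dkey-33c14.3 ran from -0.83 in the set of titles 1 to 12 to -4.26 in that of titles 37 to 48. This range of 3.43 stood against a median range of 0.77. Its valproic acid values in titles 37 to 48 were low, at 0.82 and 2.97, so the size of its range is not well fixed. Between sets, over all groups, 7 members were called in titles 25 to 36 against titles 1 to 24 (limma), where 22.3% of all genes were called, 11.2% lower and 11.1% higher. These were tgm5l, si:zfos-323e3.4, styk1a, DEAF1, RERG and ASPHD2, all lower, and btr02, higher. In titles 37 to 48 against 1 to 24, 4 members were called beside 9.19% of all genes (4.74% lower and 4.44% higher), with PPP1R9B, lipia and SOX17 higher and ifi35 lower. Both shares of members lie near or below the share of all genes.

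**Figure D5:**
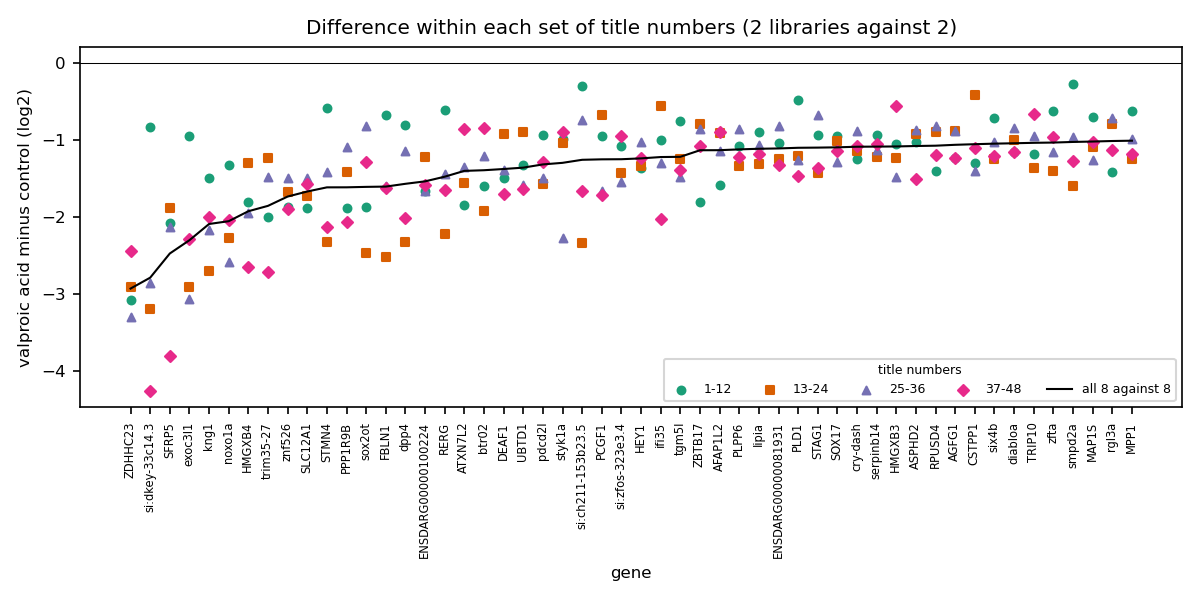
Valproic acid minus control (log2) for each member within each set of title numbers (coloured points, 2 libraries against 2) and over all 8 against 8 libraries (black line), ordered by size. All points lie below 0. The spread between sets is widest for si:dkey-33c14.3, from -0.83 to -4.26, where low valproic acid values leave its size uncertain.

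On average, members did not vary together strongly within groups. The mean correlation of their deviations from the group means over 32 libraries was 0.03 over 1326 pairs, and 0.0003 between all genes. In 21 pairs it was above 0.6. FBLN1, MPP1 and smpd2a formed such a trio, with 0.83 for FBLN1 and MPP1, 0.81 for smpd2a and MPP1 and 0.77 for FBLN1 and smpd2a, and exoc3l1 and noxo1a reached 0.72. Above 0.6 with genes of the trio were also serpinb14 (0.72 with FBLN1, 0.70 with smpd2a) and SLC12A1 (0.68 with FBLN1 and with MPP1). Other pairs were negative, down to -0.67 for FBLN1 and CSTPP1, so the mean near 0 covers pairs of both signs. The share of all gene pairs above 0.6 was not computed. The pairs share their libraries and depth. The median SD of a member was 0.28 in control and 0.38 with valproic acid, and 40 of 52 were more spread with valproic acid, as were 62.4% of all genes.

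The genes outside the set whose profile over the 32 libraries was most like the mean of the members were MEPCE (Pearson r = 0.96), ABCF2 (0.95), ubtfl (0.94), adssl (0.94), dlgap4a (0.93), ZZZ3 (0.93), rlf (0.92), kansl1a (0.92), zgc:123105 (0.92) and the STAG1 gene ENSDARG00000062137 (0.92). Members themselves had 0.69 to 0.97. The rule made the members' mean low with valproic acid, and group means were not removed. A high r thus mostly marks a clear fall with valproic acid. Members are also part of that mean, so these values are a description with no test. MEPCE, which caps and stabilizes 7SK RNA in mammals, missed the rule with control exceeding valproic acid by 0.93, while its groups stood apart by 0.52.

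At the edges of the rule, MPP1, rgl3a and MAP1S entered with control exceeding valproic acid by 1.005, 1.009 and 1.016, and the retinoid X receptor gene rxrbb (0.979), MACC1 (0.970) and si:dkey-111k8.5 (0.968) missed it. sox2ot had the lowest control mean in the set, 5.44, and RGS2 (4.85) and her4.2 (4.64) met the other conditions below the level of 5. TRIP10 and HMGXB3 entered with gaps of 0.024 between the groups, and FAM20A and cdr2b missed with overlaps of 0.0018 and 0.0021. A further 367 genes met the level and the difference but overlapped.

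By order along the RefSeq assembly GRCz12tu, 36 members could be placed on 19 chromosomes, with at most 5 on one. Of the 32 genes measured directly beside them, 0 were members, 8 were called lower and 3 higher with valproic acid, with a median of -0.18. Over all genes 15.4% were called lower and 15.9% higher, with a median of -0.01. lbx2, a homeobox gene beside PCGF1, fell by 1.33 (SE 0.24, adjusted p = 7e-05), and cldnk, a claudin gene beside btr02, fell by 1.23 (SE 0.22, adjusted p = 7.4e-05). The 3 rises were si:dkey-28a3.2 beside zfta (0.79, SE 0.16), cicb beside znf526 (0.55, SE 0.12) and BCAT2 beside ifi35 (0.32, SE 0.08). The genes on either side of noxo1a, GID4 (-0.47, SE 0.29) and TBL3 (-0.06, SE 0.07), did not pass.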

How the data were processed

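Per the labels' protocols, total RNA was isolated in Qiazol, and NEBNext Ultra II Directional libraries, which keep the strand, were made from its poly(A) fraction. The authors deposited normalized log2 values for 15710 Ensembl genes in 32 libraries. Per the submitters' processing notes, HTSeq 0.11.0, limma and the build GRCz11 were used. The sources used here name no aligner, normalization or filter on low genes. Such values hold no library totals, and a change in total RNA would not be seen.

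Groups follow the treatment in the labels, and replicates were numbered in accession order. The members, the gene lists and the partner groups were chosen with earlier results of these data known, and the partner groups after the members' names were seen. Some genes, such as her5 and SFRP1, stand in several lists or groups, so the counts of different lists are not independent. Symbols came from the identifier table, which names 15016 identifiers. Of 556 list symbols, 452 matched a measured gene, 188 exactly, 160 ignoring case and 104 without the paralog letter.

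Tests were made with limma 3.58.1 (R 4.3.3) with 1 mean per group over all 32 libraries, an intensity trend and Benjamini-Hochberg adjustment over all genes. Calls were made below an adjusted p of 0.05. The fit was tested on simulated data. Genes were named by the rule for members, by their role and by likeness, that is Pearson r with the members' mean over 32 libraries. List genes were named from those called and from the partners of a member, and some are not reported here. Alternatives were no trend, median centring, a filter at a mean of 3, the title-number sets as a block, means of 2 libraries, other thresholds of the rule and leaving out each library.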

Additional observations from a re-analysis of the deposited data

Results flagged for a closer look

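In 16 of the 208 groups of 8 libraries examined (52 members in 4 groups), the highest or lowest library stood far from the others by Dixon's ratio, which is 7.69% of groups, and chance alone gives about 1 in 20. In valproic acid, replicate 8 of HMGXB4 stood at 2.97, with the next library at 4.94. In control, a single library was high for ZDHHC23 (replicate 7, 7.20, next 6.39), ENSDARG00000100224 (replicate 6, 7.38, next 6.70), AFAP1L2 (replicate 5, 10.19, next 10.04) and PLD1 (replicate 4, 8.49, next 7.95). A single control library was low for ASPHD2 (replicate 6, 6.63, next 7.09) and CSTPP1 (replicate 4, 8.14, next 8.60). With retinoic acid, 1 library was low for si:dkey-33c14.3 (replicate 5, 3.45, next 4.74), trim35-27 (replicate 6, 3.85, next 5.35), PPP1R9B (replicate 3, 7.82, next 8.56) and AFAP1L2 (replicate 4, 9.50, next 9.82), and 1 was high for ifi35 (replicate 3, 7.67, next 7.13). With folic acid, 1 library was high for SLC12A1 (replicate 1, 8.47, next 7.90), smpd2a (replicate 1, 9.56, next 8.84) and rgl3a (replicate 8, 8.01, next 7.28), and 1 was low for STMN4 (replicate 5, 5.80, next 6.51). Single low retinoic acid libraries placed si:dkey-33c14.3 and trim35-27 among the members whose retinoic and valproic acid values overlapped.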

How the results depend on the processing

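With other thresholds, the set of 52 held 158 genes at a difference of 0.5 or more and 16 at 1.5 or more, 54 and 47 at a control level of 4 or 6, 53 with median centring, 87 when folic acid libraries were not asked to stand apart, and 177 when the 2 libraries of each group and title set were averaged first. Leaving out 1 library gave 49 to 62 members. No member was called with retinoic or folic acid under any alternative (0 in each), or in 32 fits that left out 1 library (0 to 0). The genes called with valproic acid were 4919, and 4457 to 5325 when 1 library was left out. With means of 2 libraries they fell to 3407, of which 1631 were lower. The shares of all genes given above come from the main fit. With the title-number sets as a replicate block 5836 genes were called, and 0 members with retinoic or folic acid. The replicate numbers follow accession order, and what the title sets stand for is not given. Of 529 values of named list genes, outside the fits that left out 1 library, 503 kept their call and 26 lost it. Of these losses, 22 came with means of 2 libraries. With such means 6 list counts moved by over 1.5 times, the falls in the hindbrain list from 11 to 4. Further calls of list genes were lost in the fits that left out 1 library. Depth limits low genes most, and 3 members reached a library's lowest value with valproic acid, so their folds are not fixed.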
